A study of Mus musculus with 1778 samples.

Results

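The cells compared were cranial cells of mouse embryos at 8 and at 6 somites whose titles carried one and the same number after the well. That number is read here as a plate number, which the labels do not state. The cells were chosen by that number and by their labelled stage. Cells with fewer than 50000 reads on genes, or fewer than 1500 detected genes, were left out. All 72 cells at 6 somites passed, and all but 1 at 8 somites. The cells at 6 somites were 25.4% of those compared and the cells at 8 somites 74.6%, and both stages together were 16.4% of the 1728 cells kept in the series, of 1778 in the table. All cells came from C57BL/6 embryos of the genotype Wnt1::Cre; Rosa26TdTomato. In these embryos the Wnt1 promoter drives Cre, so the red reporter at the Rosa26 locus is switched on for good in any cell that has used this promoter, and in its descendants. Cells were sorted singly into wells for Smart-Seq2, in which full-length cDNA of each cell is made and sequenced in a well of its own, without molecular identifiers. The labels name no embryo or litter. Each stage was therefore 1 pool with no replicate, and no test was made between stages. The printed 95% intervals of ratios cover counting error of reads only. Those of a share of cells treat the cells of 1 pool as independent. Neither kind covers the spread between embryos, so neither compares the stages. A level is given as reads per 1000000 reads (RPM), over reads summed across the cells of a stage with Rn45s, a ribosomal precursor RNA, and the spike-ins left out. A log2 ratio is the level at 8 somites over that at 6, and a gene was called higher or lower where the ratio reached 2-fold.

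Cranial neural crest cells form at the border of the neural plate, lose their epithelial junctions and leave the dorsal neural tube around these stages in the mouse head. SoxE and Tfap2 transcription factors mark the crest, Snai and Twist factors take part in the change from epithelium to mesenchyme, and Dlx, Alx and Prrx factors mark the crest cells that go on to form skeleton and connective tissue of the face (ectomesenchyme). Wnt1 itself is made in the dorsal midbrain and hindbrain, so its Cre also marks neural tube cells that stay in place.

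The 250 bases before the start of 4 genes are printed because these genes differed at least 2-fold from 6 somites in each of the 2 lots of 8 somite cells described below. The genes were chosen for this after their values had been seen. Hapln1, a link protein of the extracellular matrix, and Nid1, a basement membrane glycoprotein, were higher at 8 somites. Pim2, a survival kinase, and Ezr, which ties the membrane to actin, were lower. On GRCm38.p6 the windows are chr13:89540386-89540635 for Hapln1, chr13:13437352-13437601 for Nid1 and chrX:7878056-7878305 for Pim2, all on the plus strand, and chr17:6782781-6783030 for Ezr on the minus strand. Each is read 5′ to 3′ along the gene's own strand, from RefSeq, with matches to the SOX core ACAAT, searched on both strands, in capitals.
Hapln1: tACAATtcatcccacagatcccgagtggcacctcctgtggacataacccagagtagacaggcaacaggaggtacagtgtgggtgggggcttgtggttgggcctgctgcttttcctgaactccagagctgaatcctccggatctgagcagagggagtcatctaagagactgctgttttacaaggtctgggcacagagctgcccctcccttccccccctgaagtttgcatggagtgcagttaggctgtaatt
Nid1: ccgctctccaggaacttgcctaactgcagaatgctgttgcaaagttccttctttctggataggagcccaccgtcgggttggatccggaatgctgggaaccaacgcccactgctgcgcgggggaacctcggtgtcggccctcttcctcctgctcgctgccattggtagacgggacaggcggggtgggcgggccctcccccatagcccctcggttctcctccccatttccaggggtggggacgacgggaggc
Pim2: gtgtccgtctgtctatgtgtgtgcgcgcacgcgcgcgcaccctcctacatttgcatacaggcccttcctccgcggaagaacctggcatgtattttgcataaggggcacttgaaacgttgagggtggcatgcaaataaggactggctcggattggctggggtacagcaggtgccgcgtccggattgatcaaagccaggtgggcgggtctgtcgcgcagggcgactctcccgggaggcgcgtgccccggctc
Ezr: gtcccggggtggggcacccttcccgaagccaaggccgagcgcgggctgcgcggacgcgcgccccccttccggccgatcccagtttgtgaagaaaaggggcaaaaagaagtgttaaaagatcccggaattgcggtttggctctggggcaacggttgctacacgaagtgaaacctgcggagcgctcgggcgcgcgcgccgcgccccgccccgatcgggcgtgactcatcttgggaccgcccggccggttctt
Hapln1 held 1 SOX core, and the other 3 windows held 0. Pim2 held 4 matches to the E-box letters CANNTG, which read the same on both strands apart from the free bases, and the other 3 windows held 0. None of the 4 held GCCNNNGGC, the letters bound by Tfap2 factors, which also read the same on both strands. Over 32841 promoter windows of the same length, 27.7% held the SOX core, 66.2% the E-box letters and 13.7% the Tfap2 letters. Of the 30 genes named below by rank, 14 of the 15 higher and 12 of the 15 lower had a window. The SOX core was in 3 of the 14 and 1 of the 12, the E-box letters in 7 and 4, and the Tfap2 letters in 1 and 2. A match of letters is a description and not a binding site.

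Reads per cell were alike at both stages. Reads on genes ran from 137826 to 1320576 per cell at 6 somites, with a median of 798436, and from 264945 to 1478489 at 8 somites, with a median of 895815. A median of 8095 genes was detected per cell at 6 somites and 7645.5 at 8. Other properties of the plate ran along with stage. The 6 somite cells lay in plate columns 1 to 5 and the 8 somite cells in columns 8 to 21. Of the 72 cells at 6 somites, 71 had more Xist than Y-linked reads and 0 had more Y-linked reads, while 98.1% of the cells at 8 somites had more Y-linked reads and 0 had more Xist. Stage, plate column and sex cannot be told apart within this plate number.

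The 8 somite cells fell into 2 lots by their spike-in reads, a split made after the data had been seen. In 93 cells the spike-ins came to a median of 0.279% of the reads on genes, close to the 0.236% of the 6 somite cells. In the remaining 56.1% of the 8 somite cells the median was 2.04%. The first lot filled columns 8 to 13 with 2 more cells in column 14, and the second lot columns 14 to 21. The cut lay at 0.7%, between the highest share of the first lot (0.668%) and the lowest of the second (0.775%). The first lot had a median of 851714 reads on genes and 8266 genes detected per cell. The second lot had more reads, 940975, but fewer genes detected, 7208. Levels are given below for each lot as well as for the stage. Both lots were set against the same 72 cells at 6 somites, so their ratios share that side.

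**Figure D1:**
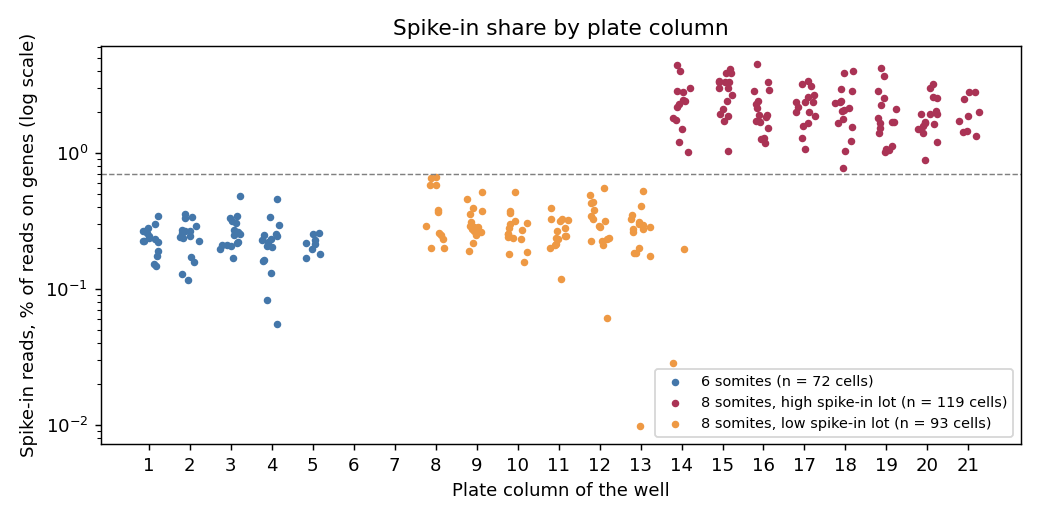
Spike-in reads per cell as a percent of reads on genes (log axis) against the plate column of the well, with each point 1 cell and the dashed line at 0.7%. The 72 cells at 6 somites sit in columns 1 to 5, the low lot of 8 somites (93 cells) in columns 8 to 14 and the high lot (56.1% of the 8 somite cells) in columns 14 to 21.

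Among 10117 genes with at least 5 RPM at either stage, 4.00% were at least 2-fold higher at 8 somites and 2.51% at least 2-fold lower. The median gene had a log2 ratio of 0.02. Of the genes called, 61.5% were higher, and 76.6% were with Rn45s kept in the totals, which shifted every ratio by 0.086. The majority turned with other cells or no minimum level: 42.7% of the genes called were higher against 6 somite cells of other plate numbers, 44.4% with all plate numbers pooled, 47.8% in cells with a Sox10 read and 48.1% with no minimum RPM. The low spike-in lot alone gave 2.96% higher and 2.22% lower genes, and the high lot alone gave 5.96% and 4.13%. The 2 lots, both of 8 somites, differed from each other as well, with 2.32% of the genes at least 2-fold higher in the high lot and 2.34% lower. Lots of 1 stage were thus apart in 4.67% of the genes, against 6.51% between the stages. Of the genes called between stages, 23.95% of the higher and 33.1% of the lower ones were also at least 2-fold apart between the lots.

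**Figure D2:**
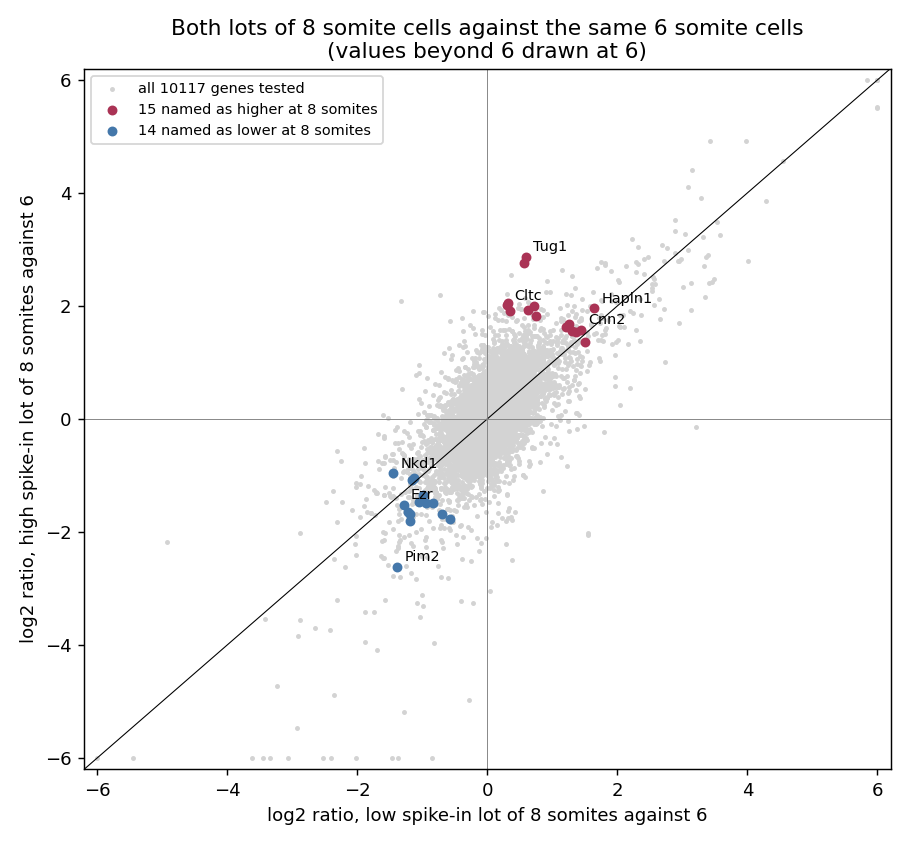
Log2 ratio to the 6 somite cells for the low spike-in lot (x axis) and the high spike-in lot (y axis) of 8 somites, each point 1 of 10117 genes, with values beyond 6 drawn at 6 and the diagonal marking equal ratios. Both axes share the 6 somite cells, so the agreement along the diagonal is partly built in. The named genes Tug1 and Cltc lie far above the diagonal (0.60 against 2.87 for Tug1), and Hapln1 and Cnn2 lie near it.

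The 15 genes with the largest higher ratios, among those with at least 50 RPM and reads in at least 20% of cells, are given in 2 groups, by whether the low lot reached 2-fold as well. All 15 reached 2-fold in the high lot, against 5.96% of all genes, and 7 of the 15 in the low lot, against 2.96%. The ranking itself used these cells, so these counts describe the genes and test nothing. The first group, 8 genes, reached 2-fold in the high spike-in lot and not in the low lot, where their ratios were above 0 as well. Tug1, a long noncoding RNA, had the largest ratio of the 15. Per cell its level ran from 13.3 to 266.6 RPM at 6 somites, with a median of 81.8, and from 10.5 to 1669 at 8 somites, with a median of 357.7. The pool level of Tug1 was 88.6 RPM at 6 somites, 134.01 in the low lot and 646.3 in the high lot, so the log2 ratio of 2.30 (95% interval 2.24 to 2.36) was 0.60 in the low lot and 2.87 in the high lot.

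Tgfbr1, a receptor of the TGF-beta family, had 13.9 RPM at 6 somites, 20.5 in the low lot and 94.6 in the high lot, and a ratio of 2.21 over the stage. Cltc, the clathrin heavy chain, had 81.3, 100.5 and 328.1 RPM in the same order. The low lot lay nearer to 6 somites than to the high lot for both genes. Jag1, a Notch ligand, had ratios of 0.62 in the low lot and 1.93 in the high lot. Lin28b, which blocks maturation of let-7 microRNAs, had 0.34 and 1.92. Pxdn, a peroxidase of the basement membrane, reached 2-fold in the high lot only, with 0.71 in the low lot. Slc5a3, a myo-inositol transporter, had 0.32 and 2.05, and Lin7c, a scaffold of cell junctions, 0.75 and 1.82.

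The levels of Tug1, Tgfbr1 and Cltc also rose in the order of the spike-in share among 6 somite cells of other plate numbers. Those cells formed 4 pools, 1 for each plate number and the smallest of 22 cells, with median spike-in shares of 0.238%, 0.679%, 2.08% and 2.88%. In the same order the share of cells with more Y-linked than Xist reads rose too, from 0 of the 22 cells in the first pool. Tug1 stood at 87.6, 337.4, 545.9 and 822.8 RPM in the 4 pools in that order. Tgfbr1 stood at 7.48, 56.4, 80.6 and 101.3 RPM. Cltc stood at 87.8, 212.2, 262.96 and 282.9 RPM. These 3 were picked from the 8 genes, and the share of all genes that rise in this order is not given. For all 3 genes the level at 6 somites in the pool with the highest spike-in share was above the level of the 8 somite cells compared here. Against all 6 somite cells of other plate numbers the ratio of the 8 somite cells was −0.39 for Tug1, −0.30 for Tgfbr1 and −0.10 for Cltc. It was also below 0 for Jag1 (−0.39), Slc5a3 (−0.76) and Lin7c (−0.03), so 6 of the 8 genes turned direction. Of all 30 ranked genes 24 kept their direction against these cells, and the share over all genes is not given. Spike-in share and sex cannot be told apart across these 4 pools. The part of either in the ratios of these genes between stages was not tested.

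The other 7 genes were at least 2-fold higher in each lot. Hapln1, whose promoter is printed above, ran from 0 to 471.7 RPM per cell at 6 somites, with a median of 15.7, and from 0 to 2117 at 8 somites, with a median of 37.4. The pool level of Hapln1 was 37.5 RPM at 6 somites, 116.8 in the low lot and 145.8 in the high lot, a ratio of 1.84 over the stage (1.75 to 1.93). The cells of the 2 stages overlapped widely, and the highest cells were at 8 somites. Cnn2, an actin-binding calponin, had 129.1, 349.1 and 384.6 RPM in the same order. Sipa1, a Rap GTPase activator, had 25.1, 70.7 and 64.7 RPM. Plcg2, a phospholipase, had 86.9, 201.3 and 268.5 RPM. Farp1, a guanine nucleotide exchange factor that acts at the membrane, had ratios of 1.25 and 1.67 in the low and high lot. Lifr, the receptor of leukaemia inhibitory factor, had 1.37 and 1.54, and Sh3bp5, a Rab11 exchange factor, had 1.30 and 1.56.

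The 15 genes with the largest lower ratios were more even between the lots. Of these, 10 reached 2-fold in the low lot, against 2.22% of all genes, and 14 in the high lot, against 4.13%. Pim2 ran from 0 to 703.6 RPM per cell at 6 somites, with a median of 26.4, and from 0 to 440.4 at 8 somites, with a median of 0. The pool of 6 somites had 57.9 RPM of Pim2, against 22.2 in the low lot and 9.44 in the high lot, a ratio of −1.98 (−2.08 to −1.88). Ezr ran from 0 to 1224 RPM per cell at 6 somites, with a median of 225.5, and from 0 to 796.1 at 8 somites, with a median of 50.7. The pool level of Ezr was 271.4 RPM at 6 somites, 111.5 in the low lot and 94.6 in the high lot, a ratio of −1.42 (−1.46 to −1.38). Most cells of 6 somites lay above the 8 somite median for both genes, and the ranges overlapped.

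Shisa2, which holds back Wnt and FGF receptors in the secretory pathway, ran from 0 to 942 RPM per cell at 6 somites, with a median of 72.1, and from 0 to 1264 at 8 somites, with a median of 6.39. Its ratio was −1.19 in the low lot and −1.68 in the high lot. Cpox, an enzyme of haem synthesis, stood at 101.2 RPM at 6 somites, 43.3 in the low lot and 32.4 in the high lot. Its ratio of −1.46 was −0.76 without the highest cell of each stage, −0.69 without clusters of other cell types and −0.24 against 6 somite cells of other plate numbers. Blood markers, given below, were lower at 8 somites too, and their part in the ratio of Cpox was not tested. Nkd1, a Wnt feedback inhibitor, stood at 139.5, 51.2 and 71.6 RPM in the same order. Ephb1, an ephrin receptor, had ratios of −1.16 and −1.08 in the low and high lot, and Cldn6, a tight junction claudin of early epithelia, had −1.13 and −1.05. Mid1ip1, which promotes lipid synthesis, had −1.05 and −1.47, and Socs2, an inhibitor of cytokine signalling, had −0.95 and −1.48. Pim2 and Mid1ip1 are X-linked, which makes 2 of the 30 ranked genes, and the part of sex in their ratios was not tested.

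Gt(ROSA)26Sor is the locus that carries the reporter of these embryos, and its level was 146.8 RPM at 6 somites, 64.2 in the low lot and 41.9 in the high lot. Its ratio of −1.52 was −0.23 against 6 somite cells of other plate numbers. The remaining lower genes stood further below 6 somites in the high lot. Meg3, an imprinted noncoding RNA, had ratios of −0.69 in the low lot and −1.68 in the high lot, and −0.50 against 6 somite cells of other plate numbers. Sox21, a neural progenitor factor, had −0.84 and −1.49. Tubb4a, a neuronal tubulin, had −0.58 and −1.78. Smtnl2, a smoothelin-like protein, had −0.98 and −1.35.

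**Figure D3:**
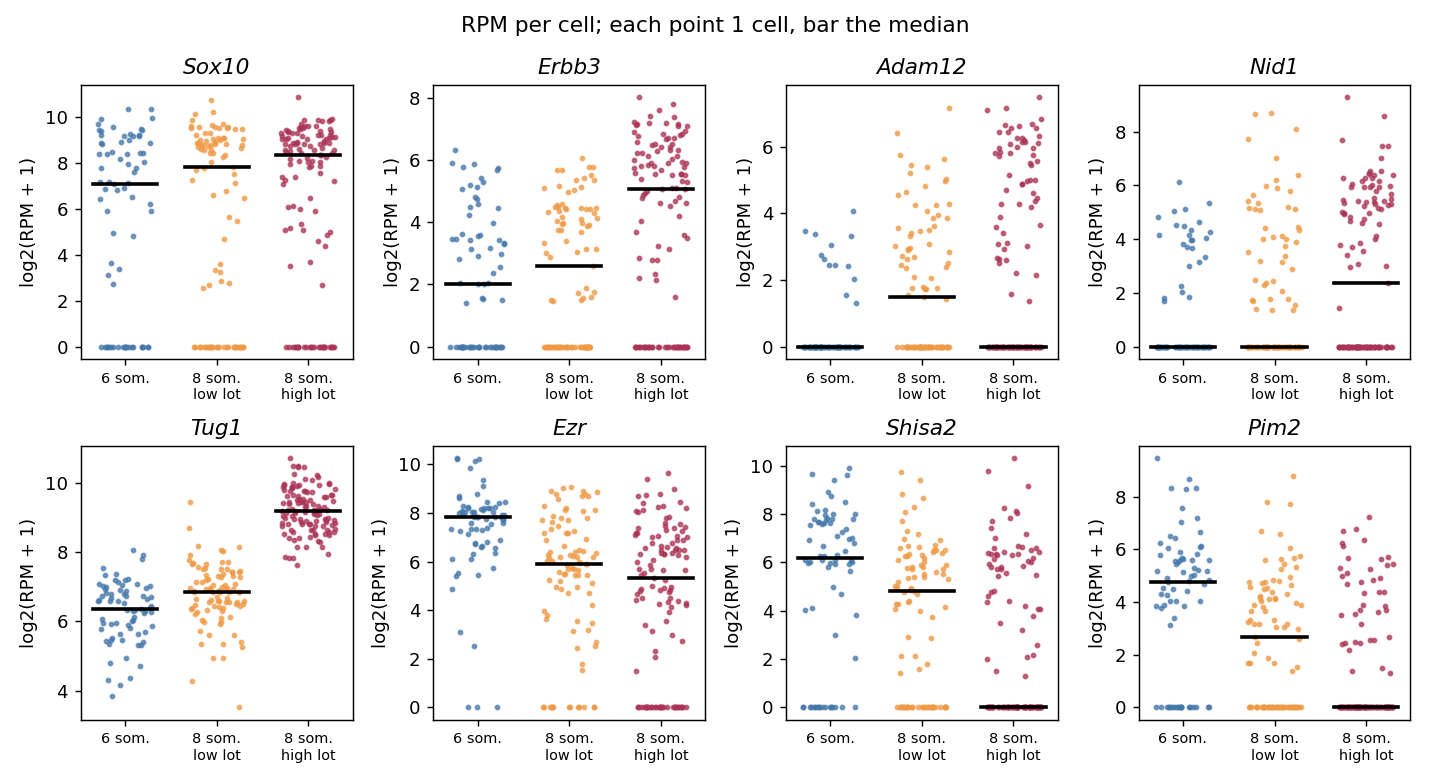
Level per cell, as log2(RPM + 1), of 8 genes in the 72 cells of 6 somites, the 93 of the low spike-in lot and the remaining ones, the high lot, of 8 somites, each point 1 cell and each bar the median. The median of Tug1 in the high lot lies above that of both other groups, the medians of Ezr, Shisa2 and Pim2 are lower in both lots than at 6 somites, and Sox10 overlaps throughout.

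A further pool of 8 somites, 15 cells of another plate number, and the 4 pools of 6 somites on other plate numbers were not used in the ranking. The 15 cells all had Y-linked reads and a median spike-in share of 1.48%. Among all 10117 genes, this pool lay above all 4 pools of 6 somites in 27.5% and below all 4 in 31.2%. Of the 15 ranked higher genes it lay above all 4 in 4, a share near that background. Of the 15 ranked lower genes it lay below all 4 in 12, against the background of 31.2%. The ranked genes had to reach 50 RPM and reads in 20% of cells, but the background genes only 5 RPM, so the shares are of unlike genes. Counts over all genes called are given with the processing below. Ezr was at 86.3 RPM in this pool and between 191.4 and 353.9 in the 4 pools of 6 somites. Shisa2 was at 74.9 RPM against 145.8 to 249.6, Nkd1 at 73.6 against 114.3 to 129.1, and Pim2 at 27.4 against 33.1 to 343.7. None of these ranges overlapped the 8 somite value. Sipa1 was at 28.3 RPM against 5.52 to 34.3 and Hapln1 at 19.1 against 28.7 to 127.8, so neither stood above the 6 somite pools there. Set against the same 72 cells of 6 somites as in the main comparison, the 15 cells had ratios of −0.97 for Hapln1, −0.55 for Cnn2 and −0.16 for Plcg2 among the higher genes, and 0.45 for Smtnl2 among the lower ones, so these 4 turned direction. The 55 cells of 10 somites with the plate number of the main comparison had 88.4 RPM of Ezr, 10.9 of Pim2 and 139.7 of Hapln1.

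**Figure D4:**
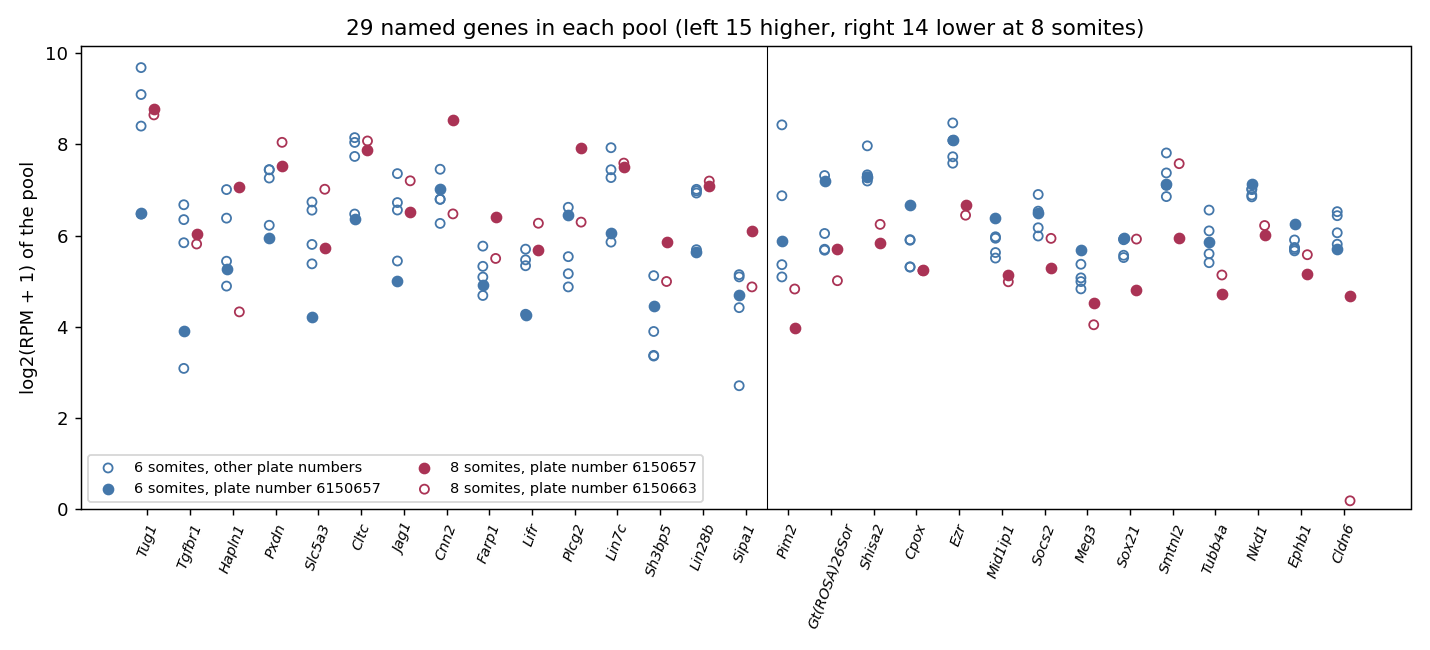
Level of 29 of the 30 ranked genes, as log2(RPM + 1), in each pool: 5 pools of 6 somites (blue) and 2 of 8 somites (red), with filled points for the plate number of the main comparison. On the right, among the lower genes, the open red point lies below the 4 open blue points in 12 genes of 14. On the left it lies above them in 4 of 15.

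Neural crest genes were present at both stages, and within this plate number Sox10 was at a like level. Sox10, the SoxE factor that marks migrating crest, ran from 0 to 1333 RPM per cell at 6 somites, with a median of 136.04, and from 0 to 1869 at 8 somites, with a median of 302.4. Its pool level was 302.6 RPM at 6 somites and 321.5 at 8, a ratio of 0.09 (0.05 to 0.12), with 0.03 in the low lot and 0.12 in the high lot. With other cells it was not level: the ratio was 1.98 against 6 somite cells of other plate numbers, 1.58 with all plate numbers pooled and −0.79 in the 15 cells of the other plate number. After each cell was thinned to 50000 reads, 48 of 72 cells at 6 somites (66.7%, exact interval 54.6% to 77.3%) and 70.3% of the cells at 8 somites (63.6% to 76.3%) had a Sox10 read. So 24 of the 72 cells at 6 somites and 63 cells at 8 somites showed no read of this marker at that depth. Without thinning the shares were 70.8% and 74.5%.

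Of 18 measured crest specifiers, 4 were at least 2-fold higher at 8 somites and 1 lower, with a median ratio of 0.17. Over all genes the shares were 4.00% and 2.51% and the median 0.02, and these 3 values are the background of every list below. Erbb3, the neuregulin receptor of crest and glial precursors, had 12.8 RPM at 6 somites, 12.3 in the low lot and 47.6 in the high lot. Its ratio of 1.37 was −0.07 in the low lot. Snai2, a repressor of E-cadherin, had ratios of 0.04 and 1.62 in the low and high lot, and Sox6, a SoxD factor, −0.04 and 1.49. Mef2c, a MADS factor of crest and muscle, had 0.86 and 1.25, and was at −0.74 in the 15 cells of the other plate number. Sox9, the SoxE factor of early crest, was the lower member, with 136.1 RPM at 6 somites and 67.8 at 8 and a ratio of −1.01 (−1.06 to −0.95). Foxd3, a factor of premigratory crest, stood near the threshold at −0.98, with 14.1 and 7.14 RPM. Ets1, a factor of delaminating cranial crest, had 159.98 and 302.98 RPM and a ratio of 0.92. Tfap2b and Ngfr (the p75 receptor) had ratios of 0.00 and −0.27, and of 1.499 and 1.82 against 6 somite cells of other plate numbers. Sox5 had 0.55. The list's median was 1.002 against 6 somite cells of other plate numbers and −0.26 in the 15 cells of the other plate number.

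The ectomesenchyme list stood higher at 8 somites within this plate number. Of its 15 measured members 7 were at least 2-fold higher and 0 lower, and the median ratio was 0.90, with 0.57 in the low lot and 1.17 in the high lot. Twist1, a basic helix-loop-helix factor of head mesenchyme, had 8.49 RPM at 6 somites and 17.4 at 8, a ratio of 1.04 (0.85 to 1.23). Its thinned share of cells with a read was 36.1% (25.1% to 48.3%) at 6 somites and 43.4% (36.6% to 50.4%) at 8. Dlx2, a factor of the pharyngeal arches, had 19.1 and 47.1 RPM and ratios of 1.16 in the low and 1.39 in the high lot. Foxc1, a forkhead factor of head mesenchyme, had 5.68 and 18.2 RPM and ratios of 1.36 and 1.86. Col3a1, a fibrillar collagen, had 3.92 and 27.1 RPM and ratios of 2.32 and 3.04. Alx1, a homeobox factor of frontonasal crest, had ratios of 0.86 and 1.93, and Pdgfrb, a growth factor receptor, had 0.57 and 1.36. Dlx5 had a ratio of −0.90 and Pdgfra of 0.82, both short of 2-fold. At 8 somites Col3a1 was at 60.5 RPM in cells without a Sox10 read and 12.1 in cells with one. Foxc1 was at 22.01 and 16.52 RPM in the same order, and Pdgfrb at 42.6 and 25.5. Alx1, Dlx2, Pdgfra and Twist1 were higher in cells with a read. Col3a1 was a leading gene, and Foxc1 a marker, of the head mesoderm cluster, with 16 cells at 8 somites and 3 at 6. Without clusters of other cell types the ratios of Col3a1 and Foxc1 were 1.73 and 3.73. In the 15 cells of 8 somites with another plate number the list's median ratio to the same 6 somite cells was −0.22. There Dlx2 stood at 0.43 and Foxc1 at 0.20, while Twist1 (−0.02), Pdgfra (−0.83), Col3a1 (−3.09) and Alx1 (−4.17) turned direction. Against the 6 somite cells of all other plate numbers the median was 1.42, with Twist1 at 1.91 and Dlx2 at 2.50.

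Of 22 measured genes of epithelial to mesenchymal transition and migration, 4 were higher and 0 lower, with a median ratio of 0.38. Adam12, a membrane metalloprotease, had the largest ratio among them. It ran from 0 to 15.7 RPM per cell at 6 somites, with a median of 0, and from 0 to 178.3 at 8 somites, with a median of 1.64. Its pool level was 1.14 RPM at 6 somites, 10.3 in the low lot and 24.6 in the high lot, a ratio of 4.02 (3.56 to 4.56). After thinning, 3 of 72 cells at 6 somites and 66 cells at 8 somites (31.1%) had a read. In the other pools Adam12 stood between 0.05 and 1.43 RPM at 6 somites and at 9.79 at 8, so the pools of the 2 stages did not overlap, which held for 8.76% of all genes in this direction. Vim, the intermediate filament of mesenchyme, had 119.8 and 268.6 RPM and ratios of 1.44 in the low and 0.93 in the high lot. Twist1 and Snai2 were the other higher members. The cadherins Cdh11 and Cdh6 had ratios of 0.95 and 0.78, and Cdh6 had −0.06 in the 15 cells of the other plate number. In the 15 cells of the other plate number Snai2 (−2.57) and Vim (−0.18) turned direction.

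Extracellular matrix genes followed, with 5 of 19 measured members higher, 0 lower and a median ratio of 0.70. Nid1 ran from 0 to 68.3 RPM per cell at 6 somites, with a median of 0, and from 0 to 620.1 at 8 somites, with a median of 0.80. Its pool level was 6.82 RPM at 6 somites, 27.6 in the low lot and 37.4 in the high lot, a ratio of 2.29 (2.09 to 2.50). Nid1 stood at 14.55 RPM in the other pool of 8 somites and between 2.14 and 12.6 in the 4 other pools of 6 somites, with no overlap. The collagens Col5a1, Col5a2 and Col4a2 had ratios of 1.29, 1.31 and 1.14, and Postn, a matrix protein of mesenchyme, had 1.14. Col5a1 was at 1.21 and 1.34 in the low and high lot, Col4a2 at 1.15 and 1.14, Col5a2 at 0.81 and 1.57 and Postn at 0.40 and 1.49. Postn moved to 2.87 without the highest cell of each stage. Against the 6 somite cells of all other plate numbers the list's median was 0.05, with Col5a1 at 1.61 and Col5a2 at 1.49, and Postn was at −2.75 in the 15 cells of the other plate number. Of 11 epithelial junction genes 1 was higher and 1 lower, with a median of −0.43. Ocln, a tight junction protein, was the higher one, at 2.22 and 5.08 RPM, and Cldn6 the lower one. Ocln was at −0.65 against the other 6 somite cells, and Cldn6 was at 1.35 once clusters of other cell types were left out.

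Neural tube genes were called in both directions. Of 13 measured neuroepithelium genes 1 was higher and 3 lower, and the median ratio was 0.32, with 0.60 in the low lot and −0.22 in the high lot. Sox1, a neural plate factor, had 11.5 RPM at 6 somites and 3.19 at 8, a ratio of −1.84 (−2.06 to −1.63). Hes3, a repressor of the isthmus, had −0.13 in the low lot and −2.33 in the high lot. Wnt3a, a dorsal midline ligand, had 6.07 and 13.7 RPM and was the higher member. Sox21 is given above. In the crest-like clusters alone the ratios of Sox1, Sox21 and Wnt3a turned, to 0.09, 0.77 and −3.11. Wnt1, whose promoter drives the Cre, had 56.1 RPM at 6 somites, 57.3 in the low lot and 27.6 in the high lot. Its thinned share of cells with a read was 38.9% (27.6% to 51.1%) at 6 somites and 21.2% (15.9% to 27.3%) at 8. Its ratio of −0.50 was 1.43 in the 15 cells of the other plate number and 1.33 in neuroepithelium-like clusters. Of 7 measured neural plate border genes 0 were called in either direction, with a median of −0.43.

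Of 10 genes of anterior and midbrain identity 0 were higher and 2 lower, with a median of −0.58 that was 0.13 in the low lot and −1.63 in the high lot. En1, a factor of the midbrain and hindbrain border, had 10.9 and 3.36 RPM and a ratio of −1.69, which was 1.60 in the crest-like clusters. Fezf1, a forebrain factor, had 29.9 and 14.3 RPM and a ratio of −1.06, which was 0.06 in the 15 cells of the other plate number. Of 6 hindbrain and posterior genes 2 were higher and 2 lower. Hoxb1, which marks rhombomere 4, had 1.70 RPM at 6 somites and 12.3 at 8, a ratio of 2.85, with 2.93 and 2.79 in the low and high lot. Egr2, a factor of rhombomeres 3 and 5, had 29.4 and 4.21 RPM and a ratio of −2.80. Irx2 had 63.2 and 31.5 RPM and a ratio of −1.01. Few cells carried these genes. Egr2 had a read in 11 cells at 6 somites (15.3%) and 5 at 8 (2.36%) after thinning, and Hoxb1 in 3 (4.17%) and 14 (6.60%). Of 8 neuron and glia genes 1 was higher and 1 lower, with a median of 0.25. Stmn2, a tubulin-binding neuronal protein, had 46.2 and 13.4 RPM and a ratio of −1.79. Isl1, a LIM homeobox factor, had 2.55 and 8.96 RPM and a ratio of 1.81 that was 0.94 without the highest cell of each stage and −0.11 against the other 6 somite cells.

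Pou5f1 had the largest ratio in size among the called genes of the early embryo. Of 10 measured genes of pluripotency and primed epiblast 1 was higher and 2 lower, with a median of −0.35. Pou5f1, the Oct4 factor of pluripotent cells, had 6.43 RPM at 6 somites and 0.43 at 8, where it rested on 47 reads, a ratio of −3.90 (−4.41 to −3.45). It ran from 0 to 45.95 RPM per cell at 6 somites and from 0 to 36.1 at 8, with a median of 0 at both. After thinning 13 of 72 cells (18.1%, 10.0% to 28.9%) at 6 somites and 5 cells at 8 (2.36%, 0.77% to 5.42%) had a read. Without thinning the shares were 47.2% and 4.72%. The other pool of 8 somites had 1.46 RPM of Pou5f1 and the 4 other pools of 6 somites between 3.75 and 19.3, so the stages did not overlap, which held for 8.71% of all genes in this direction. Pim2 was the other lower member and Lin28b the higher one. Dnmt3b, a de novo DNA methyltransferase, had 446.4 and 276.2 RPM and a ratio of −0.69 that was −0.69 in the low lot and −0.70 in the high lot.

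Signalling lists had at most 2 members called in either direction. Of 11 Wnt targets 1 was higher and 1 lower, with a median of −0.46. Nkd1 was the lower one, Lgr5, an R-spondin receptor, rested on 0.95 and 6.47 RPM with a ratio of 2.75, and Axin2, a core feedback gene, had −0.83, which was 0.43 in the 15 cells of the other plate number. Of 14 FGF targets and ligands 0 were higher and 2 lower, with a median of −0.06. The ligands Fgf8 and Fgf15 had ratios of −1.32 and −1.11, with −0.73 and −0.62 in the low lot, while Dusp6, a phosphatase induced by FGF, had 0.78. Of 12 BMP and TGF-beta genes 0 were higher and 1 lower, with a median of −0.10. Bmp5, a ligand, was that gene, at 24.98 and 9.32 RPM, with −1.49 and −1.38 in the low and high lot. Of 8 Notch genes 1 was higher (Jag1) and 0 lower, with a median of 0.73 that was −0.12 in the high lot and −0.23 against 6 somite cells of other plate numbers. Of 8 Hedgehog genes 1 was higher and 0 lower, with a median of 0.24 that was −0.26 against the same cells. Ptch1, the receptor and target, had 15.6 RPM at 6 somites and a ratio of 1.35, with 1.14 and 1.49 in the low and high lot. Against the 6 somite cells of other plate numbers Ptch1 was at −0.31 and Lgr5 at −0.08. Of 9 retinoic acid genes 1 was higher and 1 lower, with a median of −0.06. Crabp1, a retinoic acid binding protein of crest, had 158.97 and 338.5 RPM and a ratio of 1.09, and Cyp26a1, which degrades retinoic acid, had 40.8 and 9.85 RPM and a ratio of −2.05.

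Of 24 S phase genes and 26 G2M genes 0 were called in either direction, with medians of −0.01 and −0.16. Of 19 glycolysis and hypoxia genes 0 were higher and 2 lower, with a median of −0.35. Slc2a1, the glucose transporter, ran from 342.1 to 9538 RPM per cell at 6 somites, with a median of 1551, and from 93.6 to 6818 at 8 somites, with a median of 570.8. The pool level of Slc2a1 was 2043 RPM at 6 somites, 1209 in the low lot and 797.6 in the high lot, a ratio of −1.08. In the other pool of 8 somites it was at 2057 RPM, within the 2044 to 3121 of the 4 other pools of 6 somites, so the lower level was not seen there. Aldoc, an aldolase, had 8.78 and 4.22 RPM, and Bnip3, a hypoxia-induced mitophagy receptor, had −0.98. Of 10 p53 targets 0 were higher and 2 lower, with a median of −0.26. Pmaip1, a cell death gene, had 22.9 and 6.58 RPM, and Cdkn1a, a cell cycle inhibitor, 7.93 and 3.80. The ratio of Cdkn1a moved from −1.06 to −1.66 without the highest cell of each stage. Of 14 genes of dissociation stress 1 was higher and 3 lower, with a median of −0.26. Fos, an immediate early factor, had 31.5 and 9.58 RPM, Ier3 5.81 and 1.31, and Btg2 29.3 and 13.7. Hspa1a, a heat shock protein, had −0.73 in the low lot and 2.20 in the high lot, and −1.40 against the 6 somite cells of other plate numbers.

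**Figure D5:**
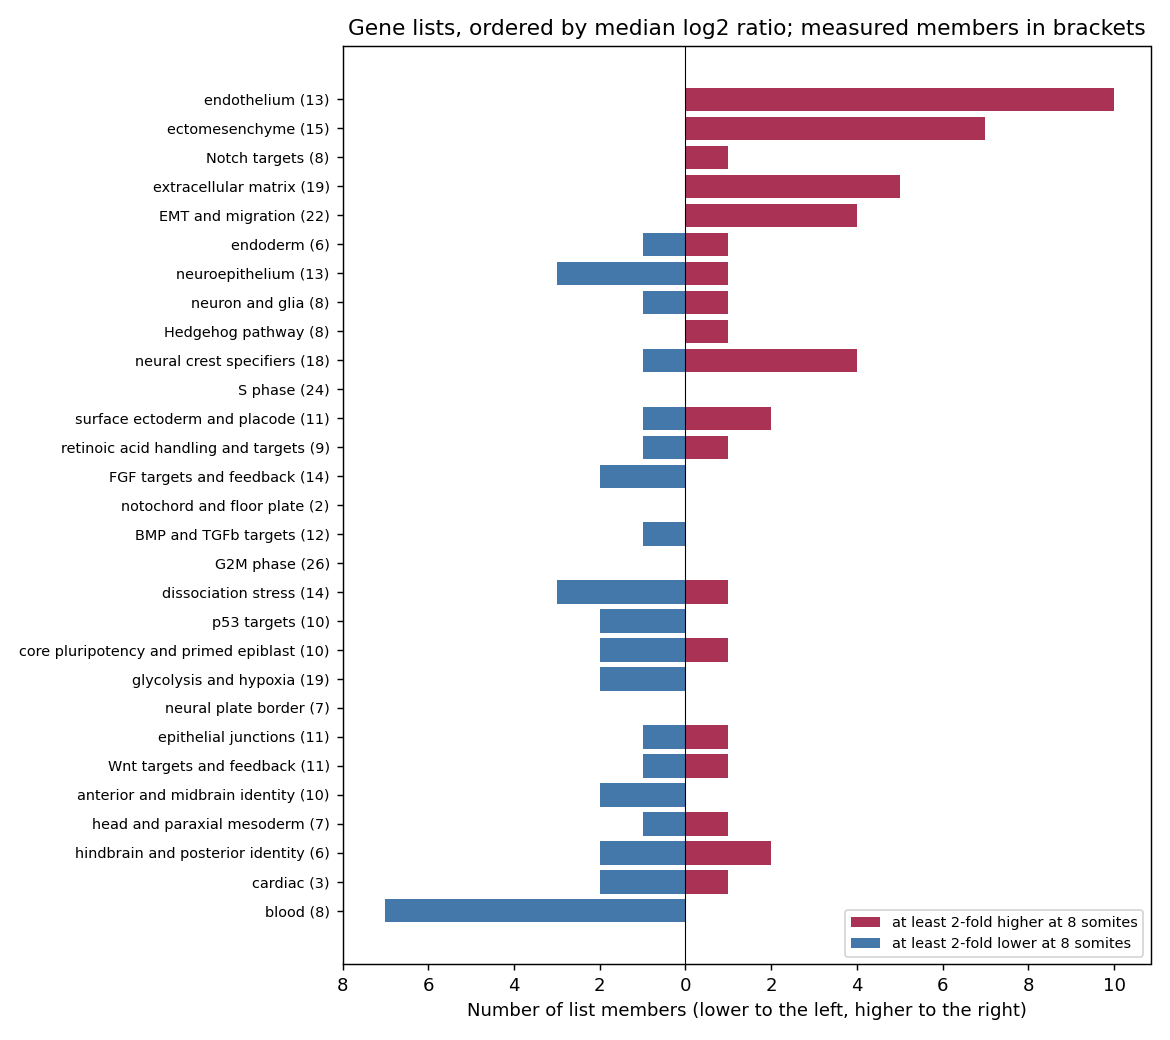
Number of members at least 2-fold higher (right, red) or lower (left, blue) at 8 somites in each of 29 gene lists, with the number of measured members in brackets and lists in order of their median ratio. After the endothelium list (10 of 13), the ectomesenchyme list (7 of 15) and the extracellular matrix list (5 of 19) have the most higher members.

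Markers of some other cell types also differed between the 2 stages. The 14 endothelial markers summed to 114.96 RPM at 6 somites and 368.98 at 8. Per cell the sum ran from 0 to 1340 with a median of 55.8 at 6 somites and from 0 to 8625 with a median of 40.7 at 8. Of 13 measured, 10 were higher and 0 lower, with a median ratio of 2.27, and 0 of the 14 were at 0 at either stage. That median was 0.24 against the 6 somite cells of other plate numbers and 0.40 with all plate numbers pooled. The cluster named as endothelium held 7 of the cells compared at 8 somites and 1 at 6. Flt1, a VEGF receptor, had 1.83 and 20.8 RPM, and its ratio was −0.27 against the 6 somite cells of other plate numbers. The 11 blood markers summed to 1251 RPM at 6 somites and 166.5 at 8, with 0 of 8 measured higher, 7 lower and a median of −3.24. Without the highest cell of each stage, gene by gene, the median was −1.30 and the ratio of Hba-x moved from −2.66 to −1.40. Per cell the sum ran from 0 to 55539 and from 0 to 13414, with a median of 0 at both. The adult globins Hba-a1 and Hba-a2 and the leukocyte marker Ptprc were at 0 at both stages. Hba-x, an embryonic globin, had 506.4 RPM at 6 somites, 195.6 in the low lot and 0.09 in the high lot, and reads in 12 cells of each stage after thinning. It had 0 reads in every pool of 6 somites on other plate numbers.

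The other lists of this kind had few measured members. Of 3 cardiac genes 1 was higher and 2 lower (median −1.49), of 6 endoderm genes 1 and 1 (0.37), of 11 surface ectoderm and placode genes 2 and 1 (−0.06), of 7 head mesoderm genes 1 and 1 (−0.61), and of 2 notochord genes 0 and 0 (−0.10). Grhl3, a surface ectoderm factor, had 37.1 RPM at 6 somites and 3.30 at 8, and a ratio of 2.27 once clusters of other cell types were left out. The part of such cells in the ratios above was not tested beyond the next values.

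The cells with a Sox10 read after thinning, 70.3% at 8 somites and 48 cells at 6, were compared alone, and so were the 63 and 24 cells without one. Of the cells with a read, 15 and 7 had at most 3. Adam12 had ratios of 3.98 with and 3.77 without a Sox10 read, Tug1 2.28 and 2.35, Pou5f1 −4.03 and −3.71, Shisa2 −1.59 and −1.22, and Ezr −1.75 and −1.07. These 5 genes were at least 2-fold apart in both groups of cells. Adam12 rested on only 2 reads at 6 somites in cells without a Sox10 read, with an interval of 2.20 to 7.15. Nkd1 had −1.72 with a Sox10 read and −0.05 without, and Ephb1 −1.86 and −0.14. Nid1 had 1.44 and 5.69, Vim 0.58 and 3.80, and Col4a2 0.19 and 2.81, so for these 3 the larger ratio lay in cells without a Sox10 read. In those cells Nid1 rested on 9 reads at 6 somites, with an interval of 4.84 to 6.90. Plcg2 had 1.66 and −0.84. The difference between the 2 groups of cells was not tested. Clusters of all 1728 cells gave 92 crest-like cells at 8 somites and 28 at 6. Of the 28, 27 were in 1 cluster led by Gfra1 and Sox9, which held 3 of the 92. The clusters with the other 89 were led by Crabp1, Tbx3 and Plcg2. The cluster with most globin reads was led by Hba-x and Actc1 and held 13 cells of 6 somites and 16 of 8. It was named cardiac, with 8 cardiac markers up. A cluster that no marker list named held 0 cells of 6 somites and 18 of 8.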

How the data were processed

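The authors' deposited table holds raw read counts with 1 column per cell, per the labels and the values. Per the submitters' processing notes, bcl2fastq 2.18, STAR 2.6 and the mm10 genome were used. Neither the read counter nor the annotation is given in the sources used here, and paralogs or overlapping genes may share reads. The members, gene lists, markers and naming rule were chosen with earlier results of these data known. Stages were taken from the labels, and reading the number after the well in each title as a plate is an inference that the labels do not state. The comparison used 212 cells of 8 somites (93 and 119 in the low and high spike-in lot) and 72 of 6 somites, and 405 genes of 10117 were called higher and 254 lower. The 8 somite pool of the other plate number lay above all 4 other pools of 6 somites in 155 of the 405, against 27.5% of all genes tested. It lay below all 4 in 133 of the 254, against 31.2%.

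Reads were summed per stage with Rn45s and spike-ins left out, and levels in RPM come from these sums. For a log2 ratio each sum was first raised by 0.5 reads. The interval of each log2 ratio is the exact 95% one for a pair of Poisson sums. Genes with no more than 3 reads at each stage got no ratio, and an alternative with a sum of 0 used 3 reads in its place, so that its ratio is a bound. The rule for ranked genes took 15 per direction by size of ratio, with at least 50 RPM, a read in at least 20% of cells at 50000 reads, and the mean of per-cell RPM at least 2-fold apart in the same direction. Unnamed models, pseudogenes, ribosomal, mitochondrial, small RNA and sex-chromosome marker genes were passed over. In each list the 6 measured members furthest from a ratio of 0 could be named, and Sox10, Twist1, Pou5f1 and Wnt1 were always named. Of the genes this rule took, 1 ranked gene and some list members are not reported here, and counts still hold them. Ets1, Tfap2b, Ngfr, Sox5, Pdgfra and Hba-x were added after their values were seen, as were the choice among eligible members and all spike-in lots. Shares of cells used random thinning to 50000 reads and exact Clopper-Pearson intervals, and 0 cells were shallower. No doublet caller was run on cells sorted 1 to a well. Clusters were made with scanpy 1.11.5 (2000 variable genes, 30 components, 15 neighbours, resolution 1) and named by the markers.

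The ratio step was tested on simulated data for 8 against 6 somites over 6632 genes with 50 genes at each change. Genes set to 4-fold gave a median log2 ratio of 1.98, and those set to 2-fold gave 0.97. The 2-fold call was reached by 40% of the genes set to 2-fold higher and 50% of those set to 2-fold lower. Both simulated stages were drawn from the 6 somite profile, without spike-in lots. Only genes well above the 5 RPM limit at 6 somites were used, so recovery nearer that limit was not tested. The alternatives used edgeR 4.0.16 and DESeq2 1.42.0 for scaling of the summed counts alone. RefSeq promoters are on GRCm38.p6, the build of mm10.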

Additional observations from a re-analysis of the deposited data

Results flagged for a closer look

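The spike-in reads, which no comparison above uses as a measurement, came to a median of 2.04% of the reads on genes in the high lot of 8 somites (56.1% of the cells of that stage), against 0.279% in the 93 cells of the low lot and 0.236% in the 72 cells of 6 somites. A signal of this kind outside the gene counts is listed here because it stood higher in the high lot than at 6 somites, and the lots were themselves defined by this share. The lots differed at least 2-fold in 4.67% of the genes tested.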

How the results depend on the processing

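The percent of genes called higher and lower, 4.00% and 2.51%, stayed within 1.5-fold under scaling by edgeR TMM factors, DESeq2 size factors or the median gene, the mean of per-cell RPM, 5 reads added, both filters on cells, and leaving out the highest cell of each gene. With Rn45s in the totals the lower genes were 1.29%. Without a minimum RPM the percents were 10.3% and 11.1%, and at 50 RPM 1.28% and 0.60%. The 8 somite cells of the other plate number gave 10.99% and 8.59%, cells without a Sox10 read 11.1% and 4.80%, neuroepithelium-like clusters 8.28% and 5.42%, and the high spike-in lot 6.18% and 4.11%, each with its own genes tested. Against 6 somite cells of other plate numbers the higher and lower genes were 3.38% and 4.53%, and 4.37% and 5.67% against those of them with more Y-linked than Xist reads, so lower genes outnumbered higher ones there. They were 5.51% and 5.41% in crest-like clusters and 3.56% and 3.88% in cells with a Sox10 read. Fewer cells went into the splits by cluster and Sox10. The spike-in lots and the comparison with more Y-linked reads were chosen after seeing the data.

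Of the genes and list medians at least 2-fold apart in the main comparison, 43 changed direction under 1 or more alternatives, and the cause was not tested. Only these are listed below, and smaller ratios turned as well, such as that of Ngfr to 1.40 with all plate numbers pooled. Among the 30 ranked genes the sign was kept by 30 under every change of scaling and filter, by 24 against the 6 somite cells of other plate numbers, and by 26 in the 8 somite cells of the other plate number. Fewer stayed at least 2-fold apart the same way, namely 13 and 17 of the 30 in these last 2 comparisons. The number was 13 with all plate numbers pooled, 15 in neuroepithelium-like clusters and 17 in the low spike-in lot. Under several changes of scaling and filter a kept sign was fixed in advance. The ranking rule itself required 50 RPM and the same direction in the mean of per-cell RPM. TMM and DESeq2 scaling shifted every ratio alike, by only −0.006 and −0.004. With all plate numbers pooled the log2 ratios that turned were −0.21 for Flt1, 0.54 for Hba-x, −1.36 for Hspa1a, −0.093 for Isl1, −0.22 for Jag1, −0.64 for Ocln, −0.22 for Ptch1, −0.50 for Slc5a3, −0.19 for Tgfbr1 and −0.26 for Tug1. In the 8 somite cells of the other plate number they were −4.17 for Alx1, −0.55 for Cnn2, −3.09 for Col3a1, 0.057 for Fezf1, −0.97 for Hapln1, −2.54 for Hspa1a, −2.47 for Isl1, −0.74 for Mef2c, −2.27 for Ocln, −0.16 for Plcg2, −2.75 for Postn, 0.0098 for Slc2a1, 0.45 for Smtnl2, −2.57 for Snai2, −0.018 for Twist1 and −0.18 for Vim. Against the 6 somite cells of other plate numbers, and then those with more Y-linked reads, they were −0.10 and −0.23 for Cltc, −0.27 and −0.32 for Flt1, at least 12.60 and 11.79 for Hba-x, −1.40 and −1.86 for Hspa1a, 0.0084 and 0.046 for Irx2, −0.11 and −0.048 for Isl1, −0.39 and −0.44 for Jag1, −0.082 and −0.14 for Lgr5, −0.034 and −0.13 for Lin7c, −0.65 and −0.70 for Ocln, −0.31 and −0.31 for Ptch1, −0.76 and −0.86 for Slc5a3, −0.30 and −0.47 for Tgfbr1, −0.39 and −0.55 for Tug1, and 10.86 and 10.05 for the blood list's median.

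Without clusters of other cell types they were 1.35 for Cldn6, 2.27 for Grhl3, 5.41 for Hba-x, −0.21 for Isl1, −0.61 for Ocln and 0.97 for the cardiac list, which was 1.10 at 50 RPM. In crest-like clusters they were 1.60 for En1, −5.04 for Flt1, 1.80 for Grhl3, −0.090 for Ocln, 0.087 for Sox1, 0.77 for Sox21, −3.11 for Wnt3a, −0.39 for the endothelium list and 0.95 for the cardiac list. In neuroepithelium-like clusters, 1 of which was led by the floor plate factor Foxa2, they were −3.40 for Alx1, 0.72 for Btg2, 1.96 for Cldn6, −0.60 for Cnn2, −4.87 for Col3a1, −1.78 for Dlx2, −3.24 for Erbb3, 0.15 for Fgf8, 5.90 for Hba-x, −3.91 for Isl1, −1.31 for Mef2c, −0.22 for Ocln, −1.22 for Pdgfrb, −1.15 for Plcg2, −1.18 for Sox6, 0.67 for Sox9, −0.057 for the endothelium list and 5.30 for the blood list. With a Sox10 read Isl1 was at −1.61. Without one they were −0.84 for Plcg2, −0.014 for Postn, 0.45 for Sox9 and 3.09 for the cardiac list. In the low spike-in lot they were −0.067 for Erbb3, −0.73 for Hspa1a and −0.040 for Sox6.

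Each stage was 1 pool, so no result has a replicate error, and genes near 5 RPM rest on few reads in few cells. No paired analysis was possible because each stage was 1 pool and no label ties a cell of one stage to a cell of the other.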
